A study of Mus musculus with 12 samples.

Results

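The lungs of mice given busulfan alone were compared with the lungs of untreated mice by RNA sequencing, using 6 of the 12 libraries of the series. The busulfan group (3 libraries) received 40 mg/kg once, and the control group (3 libraries) received nothing. Animals of a strain labelled IRC were used in every group, and the labels give neither sex, age, number of animals nor the interval between the dose and sampling. The remaining 6 libraries came from mice given alginate oligosaccharides (AOS), short sugar chains cut from a seaweed polysaccharide. Of these, 3 came from mice whose single busulfan dose was followed by 5 weeks of AOS (10 mg/kg), and 3 from mice given the same course of AOS without busulfan. All 12 libraries entered the estimate of the spread between replicates. Nothing in the labels ties a library to a separate animal, so the p-values measure only the spread between these samples.

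Busulfan, an alkylating agent, forms crosslinks in DNA and empties the bone marrow, for which it is given before transplants. It is also known for a slowly developing injury of the lung, in which alveolar epithelium is damaged and interstitial matrix accumulates. DNA damage activates the transcription factor p53, and lymphocytes are among the cells most sensitive to alkylating drugs. Target genes of p53, chaperones of the endoplasmic reticulum (the unfolded protein response), chaperones of the heat shock response and B cell genes were counted once as a base and then set apart, and the account that follows is on the other genes.

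The labels name the tissue both as "Cells" and, in titles and protocol, as lung. All 20 defining markers of alveolar type 2, alveolar type 1, club, ciliated, capillary and alveolar macrophage cells were present in all 6 libraries. The surfactant gene Sftpc had 12829, 15436 and 14737 CPM in busulfan lungs, against 13246, 11729.7 and 10123 CPM in control lungs, where CPM is counts per 1000000 after scaling for library composition. At the low end, the ciliary gene Tekt1 had at least 5.39 CPM. Markers of other tissues stood out in single libraries (see the plot of marker sums). The skeletal muscle list summed to 802 CPM or less in each busulfan library, against 5334 CPM in control replicate 2 and 779 CPM or less in the others. The liver list summed to 618 CPM or less in each busulfan library, against 2207 CPM in control replicate 3 and 648 CPM or less in the others. Heart muscle genes summed to 4101 CPM in busulfan replicate 1 and to 1382 CPM or less in the other 5 libraries.

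Of 15864 genes tested, 192 (1.21%) passed an adjusted p of 0.05 in edgeR's quasi-likelihood test, of which 116 (0.731%) were higher and 76 (0.479%) lower after busulfan. Without adjustment 2964 genes (18.7%) had a p under 0.05. The 3 busulfan and the 3 control libraries did not overlap for any of the 192 genes. Such separation was found for 1879 genes (11.8%) in the higher and 1796 genes (11.3%) in the lower direction among all genes tested. Under upper-quartile scaling, which moved the median log2 fold change of all genes by -0.035, the split was 83 higher and 95 lower. Changes in the higher direction were mostly small, with a median log2 fold change of 0.58 and 50 genes under 0.5. Changes in the lower direction had a median of -0.87, and 29 of the 76 were at or beyond -1. The number of calls fell beyond 1.5 times when single libraries were left out. Without control replicates 1, 2 and 3 in turn, 82, 35 and 51 genes were called. Without busulfan replicates 1, 2 and 3 in turn, the counts were 112, 79 and 52. Leaving out AOS replicate 1, AOS replicate 2 or the second library of busulfan with AOS gave 98, 92 and 90 calls.

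The lists set apart held 28 of the higher and 10 of the lower calls. Among p53 targets 14 of 48 tested members passed the threshold as higher and 1 as lower. Among endoplasmic reticulum chaperones and related factors 14 of 25 passed it as higher. No heat shock gene of 20 passed the threshold, although 4 passed in DESeq2 and 15 had an unadjusted p under 0.05, against 9.65% of all genes in that direction. Of 23 B cell genes 9 passed the threshold, all lower, and DESeq2 called 18 lower. All 23 had negative log2 fold changes. At an unadjusted p under 0.05, 21 (91.3%) were lower, where 9.03% of all genes were. As a base for the levels that follow, the p53 target Zmat3 had 51.6, 53.4 and 53.2 CPM in busulfan lungs, against 17.5, 18.5 and 19.9 CPM in control lungs (log2 fold change 1.499, SE 0.07, edgeR adjusted p = 8.09e-06). Outside these lists 88 genes rose and 66 fell, of which 3 and 6 carried predicted or provider names. Median log2 fold changes of these were 0.51 and -0.79, beside -0.0022 over all genes tested.

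**Figure D1:**
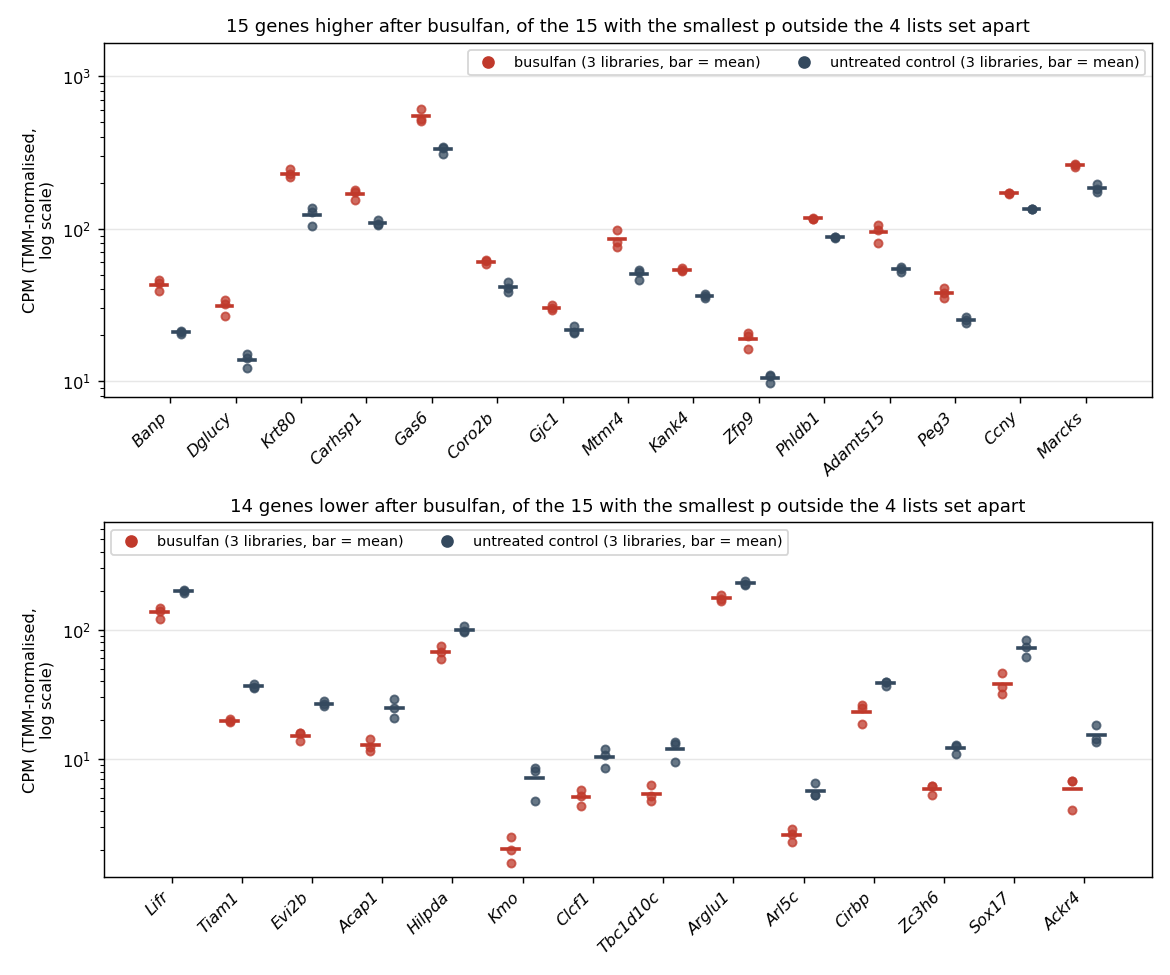
Expression in counts per 1000000 (CPM, log axis) of 15 higher and 14 lower genes, from the 15 with the smallest p in each direction outside the p53, chaperone and B cell lists. Each point is 1 library and each bar the mean of 3. Busulfan and control libraries are separate for all genes drawn.

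Among the genes that rose, the smallest p belonged to Banp, a nuclear protein that binds unmethylated CG-rich elements in promoters, and Dglucy, a mitochondrial enzyme that converts D-glutamate. Banp (chr8:121947972-122029260 of GRCm38) had 38.9, 43.7 and 45.8 CPM in busulfan lungs, against 21.1, 21.4 and 20.5 CPM in control lungs. Its fitted level was 2.04-fold higher after busulfan (log2 fold change 1.03, SE 0.10, edgeR adjusted p = 0.00155), and every control library lay below the lowest busulfan library. Dglucy showed a like separation, with 34.2, 31.8 and 26.9 CPM in busulfan lungs, against 14.2, 15.1 and 12.1 CPM in control lungs (log2 fold change 1.17, SE 0.12, edgeR adjusted p = 0.00155). Both kept an adjusted p under 0.05 whichever of the 12 libraries was dropped from the fit. The same held for 8 more of the genes that rose outside the lists set apart, 7 of which have gene symbols, namely Krt80, Carhsp1, Gas6, Coro2b, Gjc1, Mtmr4 and Zfp9. Banp, but not Dglucy, also passed when only the 6 libraries compared were fitted (adjusted p = 0.0293 and 0.0635 in edgeR).

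The next leading genes were of mixed function and were not counted as a list. The epithelial cell lists described further on held no call in edgeR. Krt80, a type II keratin of epithelia, had 217, 244 and 228 CPM in busulfan lungs, against 137, 104 and 129 CPM in control lungs (log2 fold change 0.90, SE 0.10, edgeR adjusted p = 0.00286). All 3 busulfan values stood above the highest control value. Carhsp1, an RNA-binding protein with a cold-shock domain, had 155, 174 and 179 CPM in busulfan lungs, against 108, 105 and 114 CPM in control lungs (log2 fold change 0.64, SE 0.07, edgeR adjusted p = 0.00321). Some further calls encode proteins that act on actin or microtubules. Marcks, a membrane-bound actin-binding substrate of protein kinase C, had 262, 264 and 253 CPM in busulfan lungs, against 197, 182 and 173 CPM in control lungs (log2 fold change 0.50, SE 0.07, edgeR adjusted p = 0.0135). Log2 fold changes of 0.55, 0.57 and 0.41 were fitted for the coronin Coro2b, the KANK family member Kank4 and Phldb1, which helps to anchor microtubules at the cell cortex, with edgeR adjusted p = 0.00901, 0.0101 and 0.0113. Fscn1, which bundles actin and is also a marker of mature dendritic cells, had 30.2, 23.9 and 36.2 CPM in busulfan lungs, against 11.6, 17.9 and 16.4 CPM in control lungs (log2 fold change 0.98, SE 0.17, edgeR adjusted p = 0.0318). It was the only 1 of 21 dendritic cell list members to rise in edgeR, and the plasmacytoid dendritic cell lectin Siglech fell (log2 fold change -1.46, SE 0.30, edgeR adjusted p = 0.0463). Adamts15, a secreted metalloprotease, rose by 0.81 (edgeR adjusted p = 0.0129), and Mtmr4, a phosphoinositide phosphatase of endosomes, by 0.75 (edgeR adjusted p = 0.0101), both on the log2 scale.

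Both vitamin K-dependent ligands of the TAM receptors (Tyro3, Axl and Mertk), through which cells recognise and take up dying cells, rose. Gas6 had 508, 612 and 521 CPM in busulfan lungs, against 307, 339 and 345 CPM in control lungs (log2 fold change 0.73, SE 0.08, edgeR adjusted p = 0.00392). Every busulfan library lay above every control library by a wide margin. Pros1, which encodes protein S and also acts as an anticoagulant cofactor, had 179, 182 and 216 CPM in busulfan lungs, against 135, 152 and 145 CPM in control lungs (log2 fold change 0.41, SE 0.08, edgeR adjusted p = 0.0462). On a per-length scale, the FPKM values of the authors, Gas6 had the higher level of the 2 ligands, at 208, 245 and 206 in busulfan and 128, 139.7 and 142 in control lungs. Pros1 had 58.3, 57.6 and 67.6 FPKM in busulfan and 44.5, 50.6 and 46.4 FPKM in control lungs. Pros1 was the only edgeR call among 26 genes of coagulation and fibrinolysis, where DESeq2 called 2 higher and limma-voom 0, and it was called in 1 of 12 fits that each left out a library. Gas6 overlaps the protein-coding gene Tmem255b, and whether counting used strand is not given, so their reads cannot be told apart.

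Cyclins D1 and D2 also rose. Ccnd1, cyclin D1, which drives passage out of G1 phase with its partner kinases, had 186, 166 and 230.2 CPM in busulfan lungs, against 103, 111 and 87.99 CPM in control lungs (log2 fold change 0.95, SE 0.16, edgeR adjusted p = 0.0305). Its relative Ccnd2 had 281, 353 and 332 CPM in busulfan lungs, against 176, 162 and 211 CPM in control lungs (log2 fold change 0.82, SE 0.15, edgeR adjusted p = 0.036). In both genes the lowest busulfan library exceeded the highest control library. They were the only calls among 40 cell cycle genes in edgeR, and DESeq2 and limma-voom also called 2 higher. For the list, the median log2 fold change was 0.26, with 32 members positive and 6 at an unadjusted p under 0.05 in the higher direction, where 9.65% of all genes were. The list summed to 864 to 973 CPM in busulfan and 609.5 to 675 CPM in control libraries. Without Ccnd1 and Ccnd2 the other 38 members summed to 366 to 411 CPM in busulfan and 331 to 377 CPM in control libraries, and these ranges overlapped. Ccny, a membrane-bound cyclin, differed little in size but was uniform within groups, with 170.3, 169.6 and 172 CPM in busulfan lungs, against 134, 134 and 135 CPM in control lungs (log2 fold change 0.35, SE 0.05, edgeR adjusted p = 0.0135). The Myc network partners Max and Mxd4 rose by 0.28 and 0.43 on the log2 scale (edgeR adjusted p = 0.0339 and 0.0308). They and Cables1, a cyclin-dependent kinase-binding protein (log2 fold change 0.51, edgeR adjusted p = 0.0207), were picked after their values were seen.

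Outside the lists set apart, 2 genes under provider names had the largest fitted log2 fold changes, 7.98 in a gene that stood far higher in busulfan replicate 2 than in the other libraries, and 2.57 in a gene called in all 12 leave-one-out fits. The next were Celf5 and Sall1, both of low abundance. Celf5, an RNA-binding splicing regulator, had 2.09, 2.19 and 2.27 CPM in busulfan lungs, against 0.663, 0.304 and 0.355 CPM in control lungs (log2 fold change 2.29, SE 0.42, edgeR adjusted p = 0.0373). Sall1, a zinc finger transcription factor of developing organs, had 5.38, 4.62 and 2.27 CPM in busulfan lungs, against 0.783, 0.973 and 1.01 CPM in control lungs (log2 fold change 2.14, SE 0.42, edgeR adjusted p = 0.0421). The groups did not overlap, but Celf5 kept its call in 5 and Sall1 in 3 of 12 leave-one-out fits. Creb5, a leucine zipper factor that binds cyclic AMP response elements, had 14.6, 19.3 and 27.4 CPM in busulfan lungs, against 8.07, 7.42 and 7.21 CPM in control lungs (log2 fold change 1.43, SE 0.21, edgeR adjusted p = 0.0174) and kept its call in 10 of 12. Control values of Creb5 were close together, whereas busulfan replicate 3 was well above busulfan replicate 1. Peg3, a paternally expressed imprinted zinc finger gene, had 37.7, 40.7 and 35.2 CPM in busulfan lungs, against 25.0001, 26.2 and 23.9 CPM in control lungs (log2 fold change 0.60, SE 0.09, edgeR adjusted p = 0.0134). Klf9, a transcription factor induced by glucocorticoids, had 208, 293 and 256 CPM in busulfan lungs, against 177, 157 and 149 CPM in control lungs (log2 fold change 0.65, SE 0.13, edgeR adjusted p = 0.0494). Klf9 was the 1 edgeR call among 18 glucocorticoid and metallothionein genes and kept it in 3 of 12 leave-one-out fits, while DESeq2 called 5 of them higher and limma-voom 0. In this list, the median log2 fold change was 0.63 and 7 (38.9%) were higher at an unadjusted p under 0.05, where 9.65% of all genes were. The list summed to 1622, 2739 and 2655 CPM in busulfan replicates 1, 2 and 3, against 1579 to 2145 CPM in control libraries. Busulfan replicate 1 thus lay within the control range.

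Promoter windows of 300 bases, from 250 before to 50 after the annotated start, were given by RefSeq (GRCm38.p6) for 143 of the 192 called genes, 87 higher and 56 lower, and for 12008 of the genes tested. Each was searched on both strands. The ER stress element, CCAAT and CCACG spaced by 9 bases and bound by ATF6 with NF-Y, was present in 6 of the 87 higher genes (6.90%), in 0 of the 56 lower genes and in 22 of the 12008 (0.183%). All 6 (Calr, Canx, Creld2, Hsp90b1, Hspa5 and Pdia6) belong to the chaperone list set apart. The cyclic AMP response element TGACGTCA was present in 6 of the 87 (6.90%), in 0 of the 56 and in 3.26% of all windows. Its 6 carriers lie outside the lists set apart: Creb5 itself, Peg3, Fscn1, Dapk3, Dcun1d3 and Ywhah. The E-box CACGTG was present in 13.8% of higher, 8.93% of lower and 10.9% of all windows. The antioxidant core, TGAC and GC spaced by 3 bases, was in 14.9% of higher, 16.1% of lower and 16.6% of all windows. The interferon-stimulated element core, GAAA repeated after 2 bases, was in 1.15%, 5.36% and 3.91%, in the same order. The p53 core letters CATG repeated after 6 bases were in 0 higher windows, 1 lower window (Pax5) and 0.408% of all. The heat shock letters (GAA, TTC and GAA with 2 bases between each) and the Banp element (TCTCG followed by its reverse complement) were in none of the called windows and in 0.541% and 1.02% of all. A match is a description of the letters and was not tested as a binding site. The windows of 2 genes that rose outside the lists, Creb5 (chr6:53287053-53287352, plus strand) and Peg3 (chr7:6730370-6730669, minus strand), follow with the cyclic AMP response element in capitals, and that of the chaperone gene Hspa5 (chr2:34771840-34772139, plus strand) with the ER stress element in capitals.
Creb5: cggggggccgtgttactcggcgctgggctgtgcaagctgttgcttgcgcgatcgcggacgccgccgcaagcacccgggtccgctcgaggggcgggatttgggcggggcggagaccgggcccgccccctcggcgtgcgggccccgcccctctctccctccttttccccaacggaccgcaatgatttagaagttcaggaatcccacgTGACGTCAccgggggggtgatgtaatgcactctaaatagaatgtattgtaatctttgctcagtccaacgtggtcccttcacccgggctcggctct
Peg3: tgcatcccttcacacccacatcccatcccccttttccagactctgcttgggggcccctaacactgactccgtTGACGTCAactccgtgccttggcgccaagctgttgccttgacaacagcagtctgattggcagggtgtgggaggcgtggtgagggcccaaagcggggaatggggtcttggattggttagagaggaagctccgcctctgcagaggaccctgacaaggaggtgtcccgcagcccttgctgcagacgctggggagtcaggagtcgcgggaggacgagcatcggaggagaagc
Hspa5: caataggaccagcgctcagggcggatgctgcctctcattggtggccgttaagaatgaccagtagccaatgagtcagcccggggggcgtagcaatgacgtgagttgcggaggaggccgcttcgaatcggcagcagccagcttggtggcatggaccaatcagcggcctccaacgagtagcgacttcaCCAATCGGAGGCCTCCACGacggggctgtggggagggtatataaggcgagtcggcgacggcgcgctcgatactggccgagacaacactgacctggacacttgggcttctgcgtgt

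Some genes of protein export and glycosylation in the endoplasmic reticulum that are not on the chaperone list passed the threshold with small rises. They were picked after their values were seen and were not counted as a list. Ssr2, a subunit of the translocon-associated complex, had 106, 103 and 104 CPM in busulfan lungs, against 87.6, 86.8 and 83.5 CPM in control lungs (log2 fold change 0.28, SE 0.05, edgeR adjusted p = 0.0374). Ddost, a subunit of the oligosaccharyltransferase that attaches sugar chains to new proteins, had 141, 150.4 and 147 CPM in busulfan lungs, against 117, 118 and 121 CPM in control lungs (log2 fold change 0.30, SE 0.06, edgeR adjusted p = 0.0457). The groups were tight and separate for both. Srprb (signal recognition particle receptor), Dpagt1 (first step of the sugar donor's synthesis), Slc35b1 (a nucleotide transporter of the reticulum), Ckap4 (a membrane protein of the rough reticulum) and Fkbp14 (a collagen-directed prolyl isomerase) had log2 fold changes of 0.36, 0.39, 0.48, 0.39 and 0.69, each past the threshold. Hspa5, the main chaperone of the compartment, had 816, 998 and 1131 CPM in busulfan lungs, against 494, 545 and 561 CPM in control lungs (log2 fold change 0.88, SE 0.11, edgeR adjusted p = 0.00901). The export genes kept their calls in 2 to 6 of 12 leave-one-out fits, and Hspa5 in 12.

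Enzymes that handle foreign compounds moved in both directions. Of 36 tested oxidases, esterases and related enzymes, 2 rose and 1 fell in edgeR, and 10 (27.8%) were lower at an unadjusted p under 0.05, against 9.03% of all genes. DESeq2 called 2 higher and 6 lower, and limma-voom 2 and 1. The enzyme list summed to 9903, 12213 and 8598 CPM in busulfan replicates 1, 2 and 3, against 11747 to 13553 CPM in control libraries. The club and goblet cell list, which shares 5 tested members with it, summed to 27412, 45123 and 21428 CPM in the same busulfan replicates, so both were highest in replicate 2 and lowest in replicate 3, and the part of club cells in the enzyme values was not tested. Ephx1, microsomal epoxide hydrolase, which is also on the p53 list, had 308, 384 and 305 CPM in busulfan lungs, against 179, 166 and 172 CPM in control lungs (log2 fold change 0.95, SE 0.09, edgeR adjusted p = 0.000928). Ces2e, a carboxylesterase with close relatives whose reads could be shared, had 12.6, 14.5 and 10.97 CPM in busulfan lungs, against 3.55, 5.05 and 6.27 CPM in control lungs (log2 fold change 1.35, SE 0.23, edgeR adjusted p = 0.0275). Both rose with no overlap between the groups. Aox3, an aldehyde oxidase, fell, with 140.2, 163 and 119.9 CPM in busulfan lungs, against 248, 201 and 267 CPM in control lungs (log2 fold change -0.76, SE 0.14, edgeR adjusted p = 0.0398). Ahr, the receptor that induces oxidation enzymes in response to aromatic compounds, and the drug efflux pump Abcb1a, on the p53 list, were added after their values were seen. Ahr had 91.6, 77.2 and 69.9 CPM in busulfan lungs, against 126, 125 and 119 CPM in control lungs (log2 fold change -0.63, SE 0.11, edgeR adjusted p = 0.0339), and Abcb1a had 28.8, 27.1 and 30.9 CPM in busulfan lungs, against 56.4, 44.03 and 63.2 CPM in control lungs (log2 fold change -0.92, SE 0.14, edgeR adjusted p = 0.0207). Abcb1a overlaps Rundc3b. No member of the glutathione transferase (21 tested) or antioxidant (25 tested) lists passed in edgeR or limma-voom. In DESeq2 1 antioxidant gene was called in each direction. At an unadjusted p under 0.05, 5 transferases (23.8%) were lower, and 1 antioxidant gene was higher and 1 lower.

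Among the genes that fell outside the lists set apart, Lifr, Tiam1 and Evi2b kept their call in all 12 leave-one-out fits. Lifr (chr15:7090610-7197489), the receptor chain for leukaemia inhibitory factor and related cytokines, had 140.0, 147 and 121 CPM in busulfan lungs, against 202, 193 and 199.5 CPM in control lungs (log2 fold change -0.54, SE 0.07, edgeR adjusted p = 0.00602). Clcf1, a cytokine that signals through the same receptor chain, had 4.36, 5.77 and 5.21 CPM in busulfan lungs, against 8.55, 11.9 and 10.8 CPM in control lungs (log2 fold change -1.03, SE 0.16, edgeR adjusted p = 0.0219). Ligand and receptor chain were thus lower in every busulfan library than in any control library. Tiam1, which activates the small GTPase Rac, had 19.7, 19.4 and 20.5 CPM in busulfan lungs, against 35.7, 37.9 and 35.8 CPM in control lungs (log2 fold change -0.88, SE 0.11, edgeR adjusted p = 0.00602), and it was also called with only the 6 libraries compared (edgeR adjusted p = 0.0293). Evi2b, a membrane protein of white blood cells whose gene lies within Nf1, had 15.9, 13.7 and 16.1 CPM in busulfan lungs, against 26.4, 25.8 and 28.03 CPM in control lungs (log2 fold change -0.81, SE 0.10, edgeR adjusted p = 0.00888). Reads of Evi2b and of the overlapping Nf1 cannot be told apart where strand was not used. Hilpda, a lipid droplet protein that inhibits fat breakdown, had 74.4, 67.1 and 59.7 CPM in busulfan lungs, against 96.9, 106 and 95.3 CPM in control lungs (log2 fold change -0.57, SE 0.09, edgeR adjusted p = 0.0207). Kmo, kynurenine 3-monooxygenase of tryptophan breakdown, had 2.51, 2.004 and 1.59 CPM in busulfan lungs, against 4.76, 8.09 and 8.52 CPM in control lungs (log2 fold change -1.80, SE 0.28, edgeR adjusted p = 0.0216). Kmo showed the largest relative drop of these genes but rested on low counts.

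Calls in the lower direction included some genes for RNA-binding proteins, which were not counted as a list, while the RNA-binding genes Carhsp1 and Celf5 above rose. Cirbp, an RNA-binding protein induced by mild cold, had 26.2, 25.02 and 18.6 CPM in busulfan lungs, against 39.3, 36.7 and 39.2 CPM in control lungs (log2 fold change -0.72, SE 0.12, edgeR adjusted p = 0.0236). Of 9 cold-inducible genes on its list, 4 (44.4%) were lower and 1 (11.1%) higher at an unadjusted p under 0.05. Among all genes these shares were 9.03% and 9.65%. Over all 9, the median log2 fold change was -0.04, and the list summed to 3141 to 4598 CPM in busulfan and 2682 to 3216 CPM in control libraries. Arglu1, a splicing modulator and coactivator, had 167, 185 and 171 CPM in busulfan lungs, against 237, 227 and 222 CPM in control lungs (log2 fold change -0.39, SE 0.06, edgeR adjusted p = 0.022). Zc3h6, a zinc finger protein, fell by 1.04 (edgeR adjusted p = 0.0255) and Hnrnpd, which binds AU-rich messages and was picked after its values were seen, by 0.35 (edgeR adjusted p = 0.0284), on the log2 scale. All busulfan values of the genes named here lay below all control values.

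Calls in the lower direction also included lymphocyte genes, and the chemokine scavenger Ackr4, outside the B cell list. Fewer cells of a type and less RNA per cell cannot be told apart in these bulk samples. Nor do such samples show which cells gave the reads of a gene. Ccr7, the receptor that guides lymphocytes and dendritic cells to lymphoid tissue, had 7.29, 4.798 and 5.45 CPM in busulfan lungs, against 12.3, 18.4 and 21.8 CPM in control lungs (log2 fold change -1.58, SE 0.31, edgeR adjusted p = 0.0426). Ackr4, which scavenges the same chemokines, had 6.81, 4.07 and 6.802 CPM in busulfan lungs, against 13.5, 14.4 and 18.2 CPM in control lungs (log2 fold change -1.38, SE 0.23, edgeR adjusted p = 0.0268), although its gene overlaps Acad11. Ltb, lymphotoxin beta, which organises lymphoid tissue, had 12.3, 8.02 and 9.56 CPM in busulfan lungs, against 19.3, 19.2 and 20.9 CPM in control lungs (log2 fold change -0.99, SE 0.18, edgeR adjusted p = 0.0374). In each of these the highest busulfan library stayed below the lowest control library. Ccr7 and Ltb were the edgeR calls among 11 tested lymphoid organiser genes, of which DESeq2 called 5 lower and limma-voom 1. The median log2 fold change of that list was -0.78. The B cell lectin Siglecg, which was not a member of the B cell list, had 7.65, 4.49 and 5.27 CPM in busulfan lungs, against 10.8, 21.7 and 22.5 CPM in control lungs (log2 fold change -1.66, SE 0.32, edgeR adjusted p = 0.0408). Cd69, an early activation marker, had 3.77, 2.85 and 2.94 CPM in busulfan lungs, against 6.205, 12.3 and 12.4 CPM in control lungs (log2 fold change -1.69, SE 0.33, edgeR adjusted p = 0.0431). Control replicate 1 was the lowest of the control libraries for Ccr7, Siglecg and Cd69. Tbc1d10c, an inhibitor of calcineurin signalling in lymphocytes, and Acap1, an Arf GTPase-activating protein, fell by 1.15 and 0.96 on the log2 scale (edgeR adjusted p = 0.022 and 0.0143). H2-Ob, a chain of the peptide-loading regulator H2-O and on the B cell list too, was the 1 edgeR call among 12 MHC class II genes (log2 fold change -1.87, SE 0.26, edgeR adjusted p = 0.0129). Other lymphocyte-expressed genes that fell, picked after their values were seen, were Gimap6, Gimap9, Gpr174, Sidt1, Arhgap4, Gmfg and Lrmp, with log2 fold changes of -0.58, -0.45, -1.38, -1.26, -0.83, -0.58 and -0.86. Of 12 leave-one-out fits, H2-Ob kept its call in 11, Acap1 in 10, and Ackr4 and Tbc1d10c in 8. Gimap6 kept it in 7, Ccr7 in 4, and Ltb, Siglecg, Cd69 and Sidt1 in 3. Gimap9, Arhgap4, Gmfg and Lrmp kept it in 2, and Gpr174 in 1.

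Lists for T and NK cells leaned lower. Of 26 T cell genes only Ccr7 fell in edgeR, 4 were called lower in DESeq2 and 0 in limma-voom, and 9 (34.6%) were lower at an unadjusted p under 0.05, where 9.03% of all genes were. The T cell list had a median log2 fold change of -0.36, and its sum was 157 to 199.8 CPM in busulfan and 230.5 to 317 CPM in control libraries. None of 17 NK cell genes passed in edgeR or limma-voom, 3 were called lower in DESeq2, and 6 (35.3%) were lower at an unadjusted p under 0.05. The sums were 43.6 to 91.7 CPM in busulfan and 80.7 to 123 CPM in control libraries. The NK cell sums overlapped, with busulfan replicate 1 above control replicate 2. Eomes, a transcription factor of NK cells, had 2.09, 1.52 and 0.9805 CPM in busulfan lungs, against 4.04, 2.37 and 4.32 CPM in control lungs (log2 fold change -1.22, SE 0.35, edgeR adjusted p = 0.117). Neutrophil, monocyte and interstitial macrophage, and alveolar macrophage lists held no call in edgeR, with medians of -0.32, 0.09 and -0.03. Of 18, 28 and 21 tested members, 2, 3 and 4 had an unadjusted p under 0.05 in either direction. Among all genes 18.7% did. DESeq2 called 1, 0 and 1 members of these lists, and limma-voom none. Nrros, a protein of macrophages and microglia that holds latent TGF-beta and was picked after its values were seen, fell (log2 fold change -0.42, SE 0.08, edgeR adjusted p = 0.0398).

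**Figure D2:**
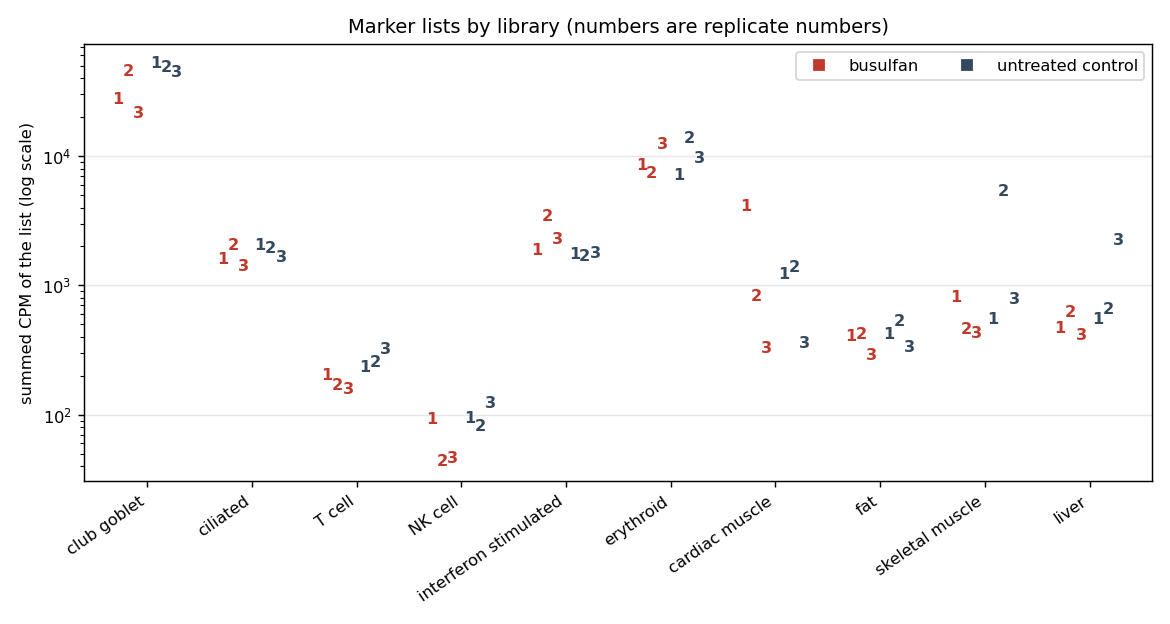
Summed CPM (log axis) of marker lists in the 3 busulfan and the 3 control libraries, each drawn as its replicate number. T cell sums lie at 157 to 199.8 CPM in busulfan and 230.5 to 317 CPM in control libraries, while skeletal muscle (control 2), liver (control 3) and cardiac muscle (busulfan 1) stand out in single libraries.

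In the vessel wall, calls went both ways. Sox17, a transcription factor of arterial and capillary endothelium, had 36.05, 31.7 and 46.1 CPM in busulfan lungs, against 60.96, 73.8 and 82.8 CPM in control lungs (log2 fold change -0.93, SE 0.15, edgeR adjusted p = 0.0255). Prx, periaxin, which lung capillary cells express, had 265, 250.1 and 303 CPM in busulfan lungs, against 146, 151 and 212 CPM in control lungs (log2 fold change 0.69, SE 0.14, edgeR adjusted p = 0.0457). The highest busulfan value of Sox17 lay well below the lowest control value, and the lowest busulfan value of Prx lay above the highest control value. They were the edgeR calls among 35 capillary genes, of which DESeq2 called 5 higher and 4 lower and limma-voom 1 in each direction. In that list 12 (34.3%) were higher and 6 (17.1%) lower at an unadjusted p under 0.05, beside 9.65% and 9.03% of all genes. Gjc1, connexin 45 of smooth muscle and other cells, had 29.9, 29.5 and 31.6 CPM in busulfan lungs, against 21.02, 20.6 and 22.9 CPM in control lungs (log2 fold change 0.50, SE 0.06, edgeR adjusted p = 0.00901). Ly6c1, a surface protein of endothelium and lymphocytes with a near-identical copy, had 513, 489.8 and 305 CPM in busulfan lungs, against 259, 225 and 245 CPM in control lungs (log2 fold change 0.84, SE 0.17, edgeR adjusted p = 0.0431), and Hspa12b, an endothelial relative of the heat shock proteins, rose by 0.55 on the log2 scale (edgeR adjusted p = 0.0398). Both were picked after their values were seen.

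Alveolar and matrix lists leaned higher without any call in edgeR. All of 25 alveolar type 1 genes missed the threshold, while 12 (48.0%) were higher and 0 lower at an unadjusted p under 0.05, and 23 had positive log2 fold changes with a median of 0.23. Among all genes 9.65% were higher at that p. The alveolar type 2 list had a median of 0.19, with 21 of 26 positive and 6 (23.1%) higher at that p. Its sums overlapped, at 36425 to 43470 CPM in busulfan and 29842 to 38631 CPM in control libraries. Cldn18, a tight junction protein of alveolar cells, had 1031, 994 and 1091 CPM in busulfan lungs, against 709.8, 729 and 825 CPM in control lungs (log2 fold change 0.46, SE 0.10, edgeR adjusted p = 0.0511). Pdpn, podoplanin of type 1 cells, had 122, 132 and 131 CPM in busulfan lungs, against 99.5, 101 and 99.6 CPM in control lungs (log2 fold change 0.36, SE 0.08, edgeR adjusted p = 0.0579). Both were separate between the groups and just missed the threshold. Of 37 collagens and collagen-processing genes, 15 (40.5%) were higher and 0 lower at an unadjusted p under 0.05, with a median of 0.27 and 34 positive. Their sum was 7835 to 9704 CPM in busulfan and 6339.5 to 7436 CPM in control libraries. Lox, the collagen-crosslinking oxidase, had 163, 200.2 and 179 CPM in busulfan lungs, against 125, 127 and 113 CPM in control lungs (log2 fold change 0.57, SE 0.14, edgeR adjusted p = 0.0742). The collagen chaperone Serpinh1 had 322, 383 and 521 CPM in busulfan lungs, against 236, 213 and 269.5 CPM in control lungs (log2 fold change 0.77, SE 0.18, edgeR adjusted p = 0.0761). Among 57 elastic fibre and other matrix genes 16 (28.1%) were higher at an unadjusted p under 0.05 and 1 was lower. DESeq2 called 5 alveolar type 1, 3 alveolar type 2, 9 collagen and 5 other matrix genes higher and 1 matrix gene lower, and limma-voom none. The alveolar type 1 list summed to 20015 to 21545 CPM in busulfan and 17898 to 18670.3 CPM in control libraries, and its part in the matrix values was not tested.

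Airway epithelial lists leaned lower, again without calls in edgeR. Of 27 club and goblet cell genes, 13 (48.1%) were lower at an unadjusted p under 0.05 and 0 higher, with a median log2 fold change of -1.42. In DESeq2 7 of them were called lower, and in limma-voom none. The list summed to 21428 to 45123 CPM in busulfan and 44096 to 51674 CPM in control libraries. Scgb1a1, the club cell secretory protein, had 21170.3, 36659 and 16322 CPM in busulfan lungs, against 40179.8, 39784 and 35823 CPM in control lungs (log2 fold change -0.64, SE 0.31, edgeR adjusted p = 0.292). Gabrp, a channel subunit of airway epithelium, had 46.6, 80.8 and 47.98 CPM in busulfan lungs, against 125, 121 and 107 CPM in control lungs (log2 fold change -1.01, SE 0.28, edgeR adjusted p = 0.11). Busulfan replicate 2 was near the control libraries for the list and for Scgb1a1, and replicates 1 and 3 were lower. Ciliated cell genes had a median of -0.49, and 36 of 39 had negative log2 fold changes. At an unadjusted p under 0.05, 5 of 39 (12.8%) were lower, near the 9.03% of all genes. Foxj1, the defining transcription factor of ciliated cells and 1 of the 3 positive members, had 47.05, 103 and 57.8 CPM in busulfan lungs, against 65.0002, 56.3 and 77.2 CPM in control lungs (log2 fold change 0.07, SE 0.44, edgeR adjusted p = 0.954). The defining ciliated markers Tekt1 and Dnah5 had log2 fold changes of -0.62 and -0.64 (edgeR adjusted p = 0.429 and 0.354). No ciliated gene passed in DESeq2 or limma-voom either. The part of the airway lists in the other results was not tested.

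Transcripts of other tissues gave the most extreme medians, -7.07 for 21 skeletal muscle and -3.89 for 21 liver genes, with 0 calls in edgeR or limma-voom, 11 and 13 lower calls in DESeq2, and 13 and 18 members lower at an unadjusted p under 0.05. Among all genes 9.03% were lower at that threshold. Sums were highest in control replicate 2 for muscle and in control replicate 3 for liver. All 3 control libraries also lay above all 3 busulfan libraries in 14 of the 21 liver and 6 of the 21 muscle genes, where 11.3% of all genes did. For example, the muscle myosin Myh2 had 0.00000, 0.0607 and 0.00000 CPM in busulfan lungs, against 0.1205, 466 and 28.6 CPM in control lungs, and the liver gene Mup3 had 1.67, 4.55 and 1.103 CPM in busulfan lungs, against 8.55, 10.2 and 104 CPM in control lungs. The 1 related call was Mup2, a major urinary protein made mainly by liver, which had 0.1196, 1.76 and 0.368 CPM in busulfan lungs, against 9.096, 5.899 and 18.9 CPM in control lungs (log2 fold change -3.90, SE 0.80, edgeR adjusted p = 0.0482). Mup genes are near-identical copies, so the split of reads among them is uncertain, and the call was lost in 10 of 12 leave-one-out fits. In the heart muscle list 0 of 17 tested genes passed in edgeR, 1 in DESeq2, and 2 were higher at an unadjusted p under 0.05.

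The remaining lists held few calls in edgeR. The crosslink repair list, with 26 genes that mend the type of lesion busulfan makes, had 1 lower call, Fancb, a core subunit of the Fanconi complex, with 6.16, 5.101 and 5.33 CPM in busulfan lungs, against 9.82, 9.24 and 7.86 CPM in control lungs (log2 fold change -0.70, SE 0.14, edgeR adjusted p = 0.0457). Fancb overlaps Mospd2 and kept its call in 1 of 12 leave-one-out fits. The median of that list was -0.03, while its sum was 357 to 386 CPM in busulfan and 397 to 416 CPM in control libraries. Genes of oxidative phosphorylation had a median of -0.05 with 1 of 76 past an unadjusted p of 0.05, and ribosomal protein genes had a median of -0.11 with 12 of 80 lower, where 9.03% of all genes were. Of 38 interferon-stimulated genes 36 were positive with a median of 0.62, but 0 passed in edgeR, DESeq2 or limma-voom and 1 had an unadjusted p under 0.05. Their sum was 1855, 3382 and 2246 CPM in busulfan replicates 1, 2 and 3, against 1665 to 1767 CPM in control libraries. Sesn2, a sestrin of the amino acid stress list that is also a p53 target, and Gdf15, a secreted stress cytokine of both the senescence and p53 lists, were the edgeR calls in their lists, at log2 fold changes of 0.81 and 3.85. Of the 61 lists outside the base, 14 had a call in edgeR, 45 in DESeq2 and 11 in limma-voom. Of the 47 with no edgeR call, 31 had one in DESeq2 and 0 in limma-voom.

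**Figure D3:**
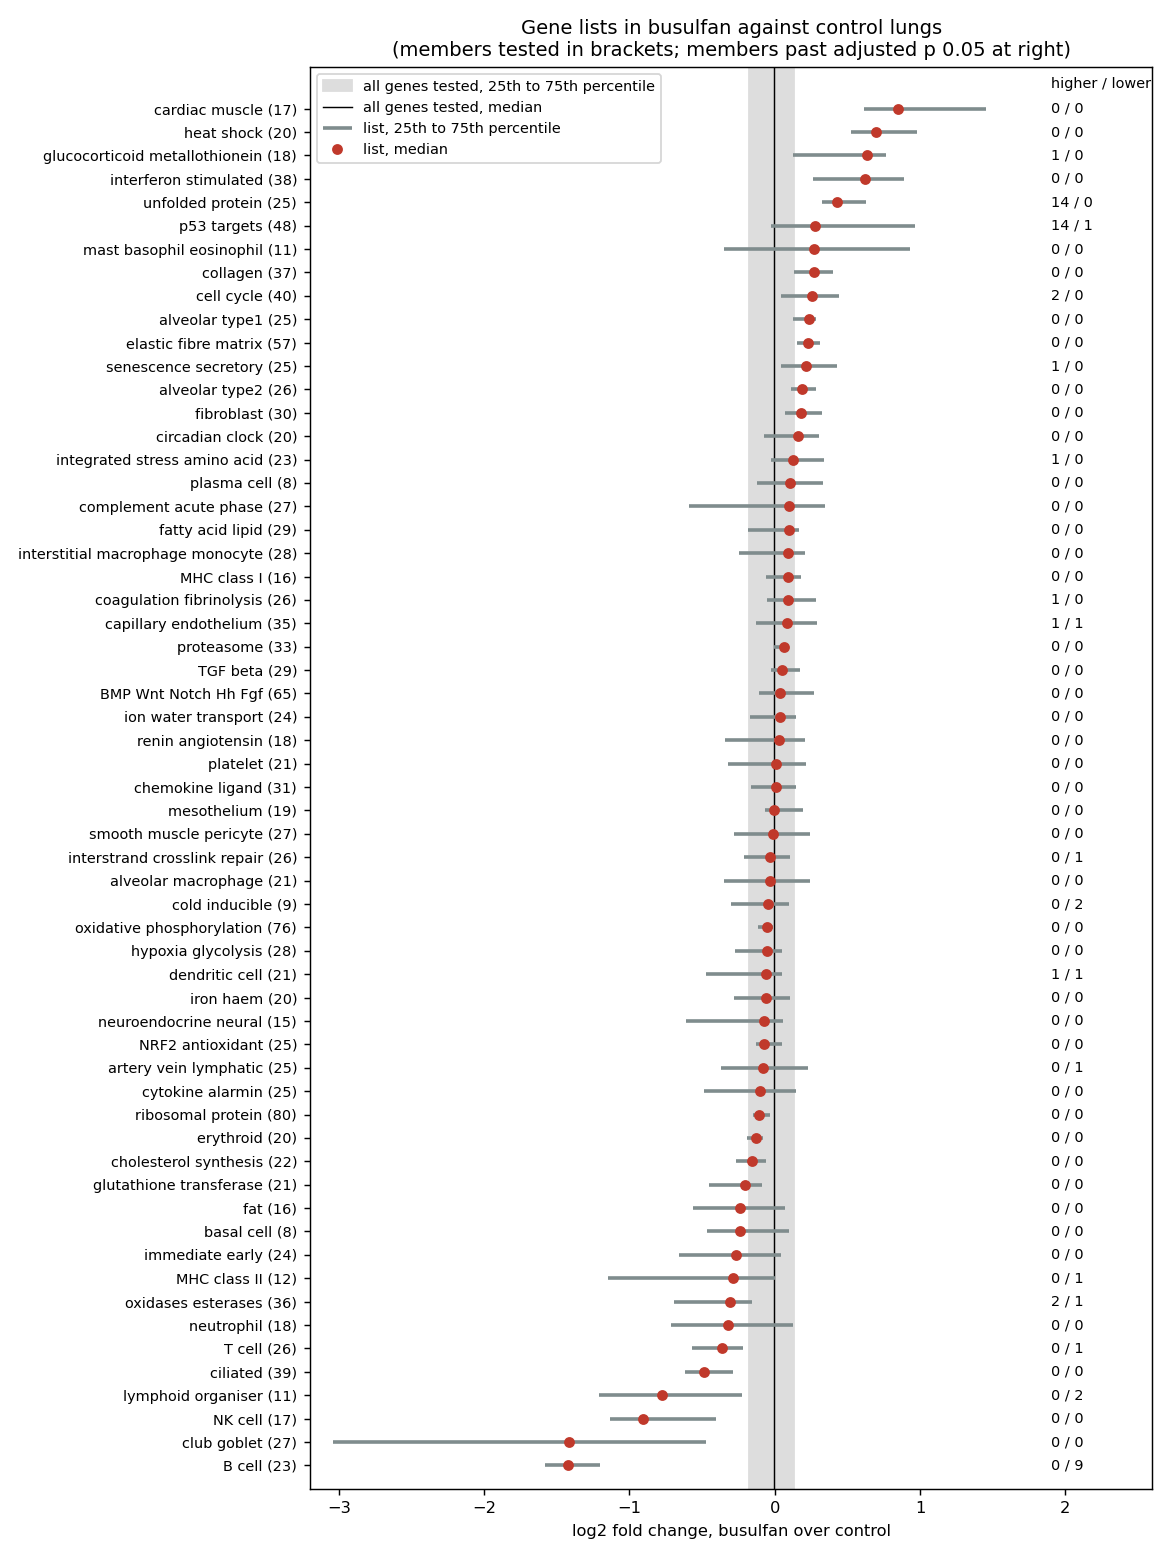
Median (point) and 25th to 75th percentile (line) of the log2 fold change, busulfan over control, for each list with at least 5 tested members, with all genes tested in grey. Skeletal muscle (median -7.07) and liver (-3.89) lie off the axis and are not drawn. The numbers at right count members that passed an adjusted p of 0.05, higher and lower. Of the 59 lists drawn, 15 have a median above the 25th to 75th percentile range of all genes, among them alveolar type 1 and collagen genes, and 13 have one below it, among them club and B cell genes.

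The same contrast in mice that all received AOS shares no library with the one above, though it uses the same estimate of the spread, and shows how far these changes recurred. Busulfan with AOS against AOS alone gave 367 calls (2.31%), 248 (1.56%) higher and 119 (0.75%) lower. Of the 88 genes that rose outside the lists set apart, 86 had the same sign there and 47 (53.4%) were called, with a median log2 fold change of 0.40. Of the 66 that fell, 63 had the same sign and 26 (39.4%) were called, with a median of -0.54. An unadjusted p under 0.05 was found there for 78 of the 88 and 52 of the 66, where 11.2% of all genes were higher and 9.37% lower at that threshold. Over all 192 calls, 74 of the 116 that rose and 34 of the 76 that fell were called in both comparisons, which is 29.8% of the 248 and 28.6% of the 119. Genes whose calls recurred included Banp, Dglucy, Krt80, Gas6, Ccnd1, Ccnd2, Creb5, Lifr, Cirbp, Sox17 and Ltb. Banp had a log2 fold change of 0.83 (edgeR adjusted p = 0.00425) with AOS, Creb5 1.40 (edgeR adjusted p = 0.0129) and Lifr -0.61 (edgeR adjusted p = 0.0021). Others did not pass there, such as Phldb1 (0.12, edgeR adjusted p = 0.258), Peg3 (0.17, edgeR adjusted p = 0.282) and Kmo (-0.70, edgeR adjusted p = 0.191). The same held for Ccr7 (-0.96, edgeR adjusted p = 0.111) and Cd69 (-0.68, edgeR adjusted p = 0.272). Signs were opposite for Iah1 and a gene under a provider name among those that rose, and for Gm6712, Mecom and Mup2 among those that fell. Mup2 had 20.2, 6.46 and 7.95 CPM with busulfan and AOS, against 9.69, 6.36 and 12.7 CPM with AOS alone. List medians recurred only in part. With AOS, alveolar type 1, collagen and lymphoid organiser medians were 0.20, 0.27 and -0.86, against 0.23, 0.27 and -0.78 without. T cell, club and goblet, ciliated, glucocorticoid and alveolar type 2 medians were -0.07, -0.23, -0.09, 0.20 and 0.07, against -0.36, -1.42, -0.49, 0.63 and 0.19. Skeletal muscle and liver medians were 0.41 and 0.69, against -7.07 and -3.89. The difference between the 2 busulfan effects was itself tested, and 0 genes passed in edgeR (smallest adjusted p = 0.990), with 758 genes (4.78%) at an unadjusted p under 0.05.

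**Figure D4:**
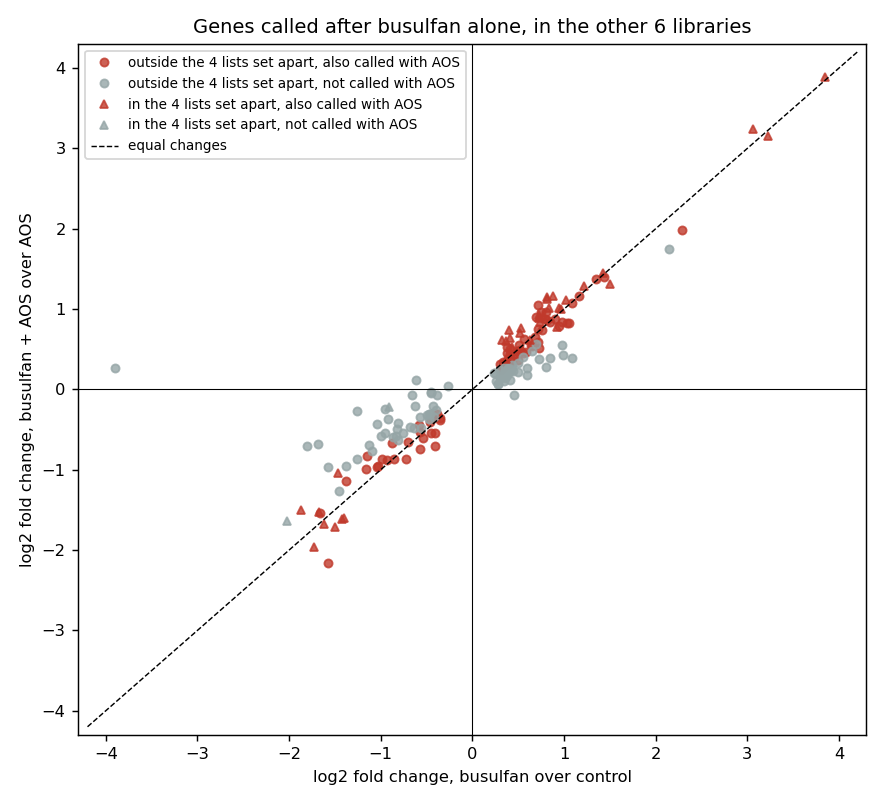
Log2 fold changes of the genes called after busulfan alone, busulfan over control (x axis) and busulfan with AOS over AOS alone (y axis). Red symbols were also called with AOS, grey symbols were not, and triangles are members of the lists set apart. Genes under provider names are not drawn. Most points have the same sign on both axes, and the grey point at the far left is Mup2.

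**Figure D5:**
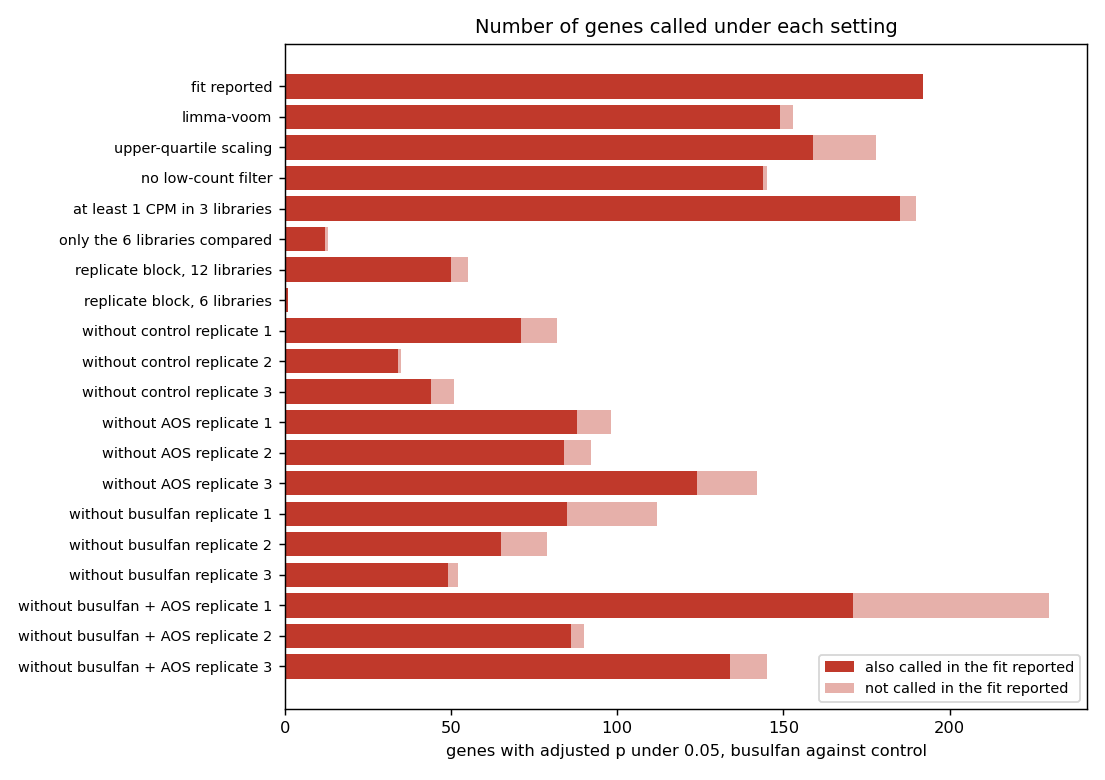
Number of genes with an adjusted p under 0.05 in busulfan against control lungs under each setting, split by whether the gene was also called in the fit reported (192 genes). DESeq2 (974 calls) is not drawn. Fits with only the 6 libraries compared called 13 genes, and leaving out 1 library gave 35 to 230.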

How the data were processed

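Gene expression was measured by RNA sequencing of 12 lung libraries made from total RNA, per the labels. The authors deposited 1 table of 19726 genes with estimated counts per gene and library, not normalised, with 75.9 to 77.1% of a library's values whole. FPKM values stand beside them in the deposited table, a unit read from how the numbers behave since no header names it. Their 8 columns of group means were not used. The submitters' processing notes name mm10. Aligner, counting program and use of strand: not given in the sources used here. Coordinates come from RefSeq on GRCm38.p6, the same assembly as mm10 (18583 of the table's IDs matched, and 1014 others were the provider's own names).

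Estimated counts were rounded to whole numbers, filtered with filterByExpr (15864 genes kept), scaled by TMM and fitted with 1 mean per group over all 12 libraries in edgeR 4.0.16 (R 4.3.3). The quasi-likelihood F test was used with Benjamini-Hochberg adjustment over all genes and a threshold of 0.05. The SE is the absolute log2 fold change divided by the square root of F, with a median of 0.132. Totals ran from 16209221 to 17168764 counts, and 3 counts equal 0.175 to 0.185 CPM. Replicates of a group differed by more than counting noise. The scripts were tested on simulated data. Lists are described by counts and medians beside all genes, with no test of a list. Alternatives used DESeq2 1.42.0 and limma 3.58.1 (voom), other scaling and filters, fewer libraries and a replicate block. Figures used Python 3.11.15, pandas 2.3.3, numpy 2.4.6 and matplotlib 3.10.9.

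Named genes are the 15 with the smallest p in each direction outside the lists set apart and without predicted names, the 5 largest changes in each direction at 1 CPM or more, called list members (up to 6 per list) and up to 2 examples from lists with no call. Others are marked as picked after their values were seen. The result of 1 gene under this rule is not reported here. The genes, lists and rules were chosen with earlier results of these data known.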

Additional observations from a re-analysis of the deposited data

How the results depend on the processing

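DESeq2 called 974 genes, 492 higher and 482 lower, 191 of them among the 192 of edgeR. With only the 6 libraries compared in the fit, 13 genes were called (11 higher, 2 lower), 12 of them shared: Banp, Kank4, Tiam1, p53 targets, Manf and a gene under a provider name, with Aox1 as the additional gene. Fewer libraries leave fewer residual degrees of freedom in that fit. Leaving out 1 library at a time gave 35 to 230 calls, 27 to 126 higher and 8 to 104 lower, and 24 genes kept their call in all 12 such fits. The count stayed within 1.5 times under limma-voom (153), upper-quartile scaling (178), no filter (145) and a 1 CPM minimum (190). Counting an unadjusted p under 0.05 with the same sign, 167 rather than 108 of the calls recurred in the mice given AOS.

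The replicate numbers gave no sign of pairing. Deviations of same-numbered busulfan and control libraries correlated at 0.050, -0.057 and 0.182 for numbers 1 to 3. For differently numbered libraries the correlations ran from -0.248 to 0.213. So few libraries cannot exclude a pairing. With the replicate block, 55 genes were called over 12 libraries (42 higher, 13 lower), and over 6 libraries 1 gene was called in edgeR (1 higher, 0 lower), with 2779 at an unadjusted p under 0.05.

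Of the 55 called genes taken by the naming rule, 17 passed in every fit that left out a library. All 55 passed in DESeq2, 47 in limma-voom, 53 under upper-quartile scaling, 5 with 6 libraries, 28 with the block over 12 libraries and 0 with the block over 6. None changed direction in any of these. With 3 libraries a group, log2 fold changes under about 0.5 are detectable only where replicates agree closely, and genes near the floor of 3 counts remain imprecise.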

Other observations

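Further genes that passed the threshold, all picked after their values were seen, belonged to other recognisable classes. Serpina3n, an acute phase protease inhibitor, had 75.3, 79.7 and 99.03 CPM in busulfan lungs, against 45.96, 30.5 and 46.3 CPM in control lungs (log2 fold change 1.05, SE 0.16, edgeR adjusted p = 0.0207). Genes of metabolite handling that rose were Upp1, which splits uridine, Ddah1, which breaks down methylarginines, the thiamine transporter Slc19a2 and the fatty acid transporter Slc27a4, with log2 fold changes of 0.72, 0.75, 0.69 and 0.35. Prodh, proline dehydrogenase, fell (-0.41). Stress-activated kinases split by member. Map3k6 and Map3k20 rose (1.08 and 0.38), and Map2k6 and Map3k1 fell (-0.87 and -0.48).

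Several transcription factors fell. Hhex, a homeobox factor of endothelium and blood cells, had 17.04, 13.4 and 20.6 CPM in busulfan lungs, against 27.9, 32.2 and 29.4 CPM in control lungs (log2 fold change -0.81, SE 0.15, edgeR adjusted p = 0.0374). Rorb, a nuclear receptor related to the clock factors, had 0.478, 0.547 and 0.4902 CPM in busulfan lungs, against 1.33, 1.52 and 1.71 CPM in control lungs (log2 fold change -1.58, SE 0.30, edgeR adjusted p = 0.0398). Pgr, the progesterone receptor, had 6.22, 4.13 and 4.23 CPM in busulfan lungs, against 10.9, 8.76 and 13.1 CPM in control lungs (log2 fold change -1.17, SE 0.20, edgeR adjusted p = 0.0303). The groups did not overlap for these 3 genes, as for all 192 calls. Rorb rested on low counts and kept its call in 2 of 12 leave-one-out fits, Hhex in 3 and Pgr in 8. Mecom, a zinc finger factor of blood stem cells and endothelium, fell by 0.27 on the log2 scale here and had the opposite sign in the mice given AOS, while the test of the difference between the 2 busulfan effects did not pass for it (edgeR adjusted p = 0.99).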
